A study of Homo sapiens with 44 samples.

Results

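The genes described here code for enzymes that make, supply and break down glycogen: GYS1, GYG1, GBE1, UGP2, PGM1, PYGB, PYGL and the phosphatase subunit PPP1R3D. They were chosen by name, with earlier results of these data known. Every probe set (a group of short probes for one transcript) whose only gene symbol was one of these was used, which gave 10 probe sets for 8 genes, out of 22215 probe sets and 12165 genes measured. The study took 4 established human lines of acute myeloid leukemia (AML), namely MOLM-14, U937, HL-60 and THP-1, infected them with short hairpin RNAs and profiled total RNA on 44 Affymetrix arrays. HL-60 cells resemble promyelocytes, and the other lines resemble monocytes. Each line had 3 arrays with a scrambled control hairpin and 2 arrays with each of 4 hairpins: shGSK3A_5 and shGSK3A_6 against GSK3A, here hairpins 5 and 6, and shGSK3B_1 and shGSK3B_2 against GSK3B, here hairpins 1 and 2. All cells, controls included, were put under puromycin at 1 µg/mL from 48 h after infection, and RNA was taken after another 48 h. No uninfected cells were part of these groups. The labels call the replicates biological and do not say whether they were separate infections, so p-values may measure only technical spread.

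Glycogen is a branched store of glucose. Glycogenin (GYG1) primes a new particle, glycogen synthase (GYS1) lengthens the chains with UDP-glucose, and the branching enzyme (GBE1) adds branch points. PGM1 interconverts glucose 6-phosphate and glucose 1-phosphate, from which UGP2 makes UDP-glucose. The phosphorylases PYGB and PYGL release glucose 1-phosphate from the chains. Glycogen synthase kinase 3, whose alpha and beta forms come from GSK3A and GSK3B, is named for phosphorylating and so inhibiting glycogen synthase. Protein phosphatase 1, brought to glycogen by subunits such as PPP1R3D, takes such phosphates off again. This regulation acts on protein, whereas the arrays measure transcripts.

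The promoters of GYG1, PPP1R3D and PYGB are shown because a probe set of each passed the test on the mean over the 4 lines. It did so with a single target or with both. RefSeq (GRCh38.p14) held a promoter for 8 of 8 genes, with 11 start sites in all, and the 250 bases before each start were searched on both strands. Capitals mark CACGTG, the E-box that many helix-loop-helix transcription factors bind. The sequences read 5′ to 3′ on the gene's own strand. They lie upstream of the transcripts, at chr3:148991290-148991539 on the plus strand for GYG1, chr20:59940306-59940555 on the minus strand for PPP1R3D, and chr20:25247835-25248084 on the plus strand for PYGB.
GYG1: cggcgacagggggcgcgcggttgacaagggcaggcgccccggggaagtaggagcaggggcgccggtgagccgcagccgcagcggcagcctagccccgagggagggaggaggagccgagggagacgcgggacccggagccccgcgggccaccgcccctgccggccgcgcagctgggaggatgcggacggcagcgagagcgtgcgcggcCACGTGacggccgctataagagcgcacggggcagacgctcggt
PPP1R3D: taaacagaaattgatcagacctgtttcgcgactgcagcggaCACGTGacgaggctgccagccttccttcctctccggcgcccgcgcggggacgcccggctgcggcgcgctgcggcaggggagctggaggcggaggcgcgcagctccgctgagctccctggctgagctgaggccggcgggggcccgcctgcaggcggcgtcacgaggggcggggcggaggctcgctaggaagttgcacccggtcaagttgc
PYGB: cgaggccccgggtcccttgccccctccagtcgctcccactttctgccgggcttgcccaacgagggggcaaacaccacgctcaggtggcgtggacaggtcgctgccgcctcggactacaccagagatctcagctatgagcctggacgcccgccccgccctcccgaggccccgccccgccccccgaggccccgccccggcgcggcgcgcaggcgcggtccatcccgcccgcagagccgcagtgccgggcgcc

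CACGTG was in 2 of the 11 promoters, those of GYG1 and PPP1R3D, against 6.34% of all RefSeq promoters of this length. Its first base lay 43 bases before the start in GYG1 and 209 bases before it in PPP1R3D. Both copies continue as CACGTGAC, a longer form looked up after the sequences were seen, which 2.16% of all promoters hold. The core ACGTG, which every CACGTG contains, was in 5 of 11 promoters against 18.5% of all. The GC box GGGCGG was in 9 of 11 against 42.6%, with 6 copies in the PYGB window, which has no CACGTG. GC content was 77.2% for GYG1, 71.6% for PPP1R3D and 76.4% for PYGB, against a median of 58% over all promoters. These matches describe the sequence and are not evidence of binding.

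The arrays were similar in scale, with medians of deposited intensity from 18.95 to 22.9. GSK3B fell with its own hairpins by 1.56 ± 0.05 on the log2 scale (limma, adjusted p = 1.91e-18). With GSK3A hairpins, the brighter GSK3A probe set fell by 0.09 ± 0.03 (limma, adjusted p = 0.0204), and the other was at −0.08 (0.0934). By hairpin the brighter one was at −0.07 ± 0.03 with hairpin 5, which missed the test (0.124), and fell by 0.10 ± 0.03 with hairpin 6 (0.0297). The hairpins did not differ from each other in it (0.03 ± 0.04, 0.717). The labels mention protein blots, which were not analysed here. The myeloid markers CEBPA, PTPRC and ITGAM lay above 4 times the median probe set in all 4 lines. MPO and CD14 did so in HL-60 alone. CSF3R averaged 45.4 to 77.6 by line and lay under that level in all 4. SPI1 and CD68 stayed dim in all 4, and CD33 and LYZ had no probe set of their own. Of the markers of other cell types, NKG7 averaged 46.1 to 1032 by line and KRT18 averaged 141 in MOLM-14. All other B, erythroid, T and NK, and epithelial and stromal markers stayed under 4 times the median probe set. The array labels give plate positions. Controls 1 and 2 and replicate 1 of each hairpin sat in plate columns 1 to 6, and control 3 and replicate 2 in columns 7 to 11. In MOLM-14 24% of probe sets and in U937 31.9% differed between these columns at an adjusted p under 0.05, against 0% in HL-60 and in THP-1. Changes by target, by hairpin over the 4 lines and by target in 1 line are therefore also given with the columns as a block where that changes a call. Calls by target are given within each set of columns too.

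**Figure D1:**
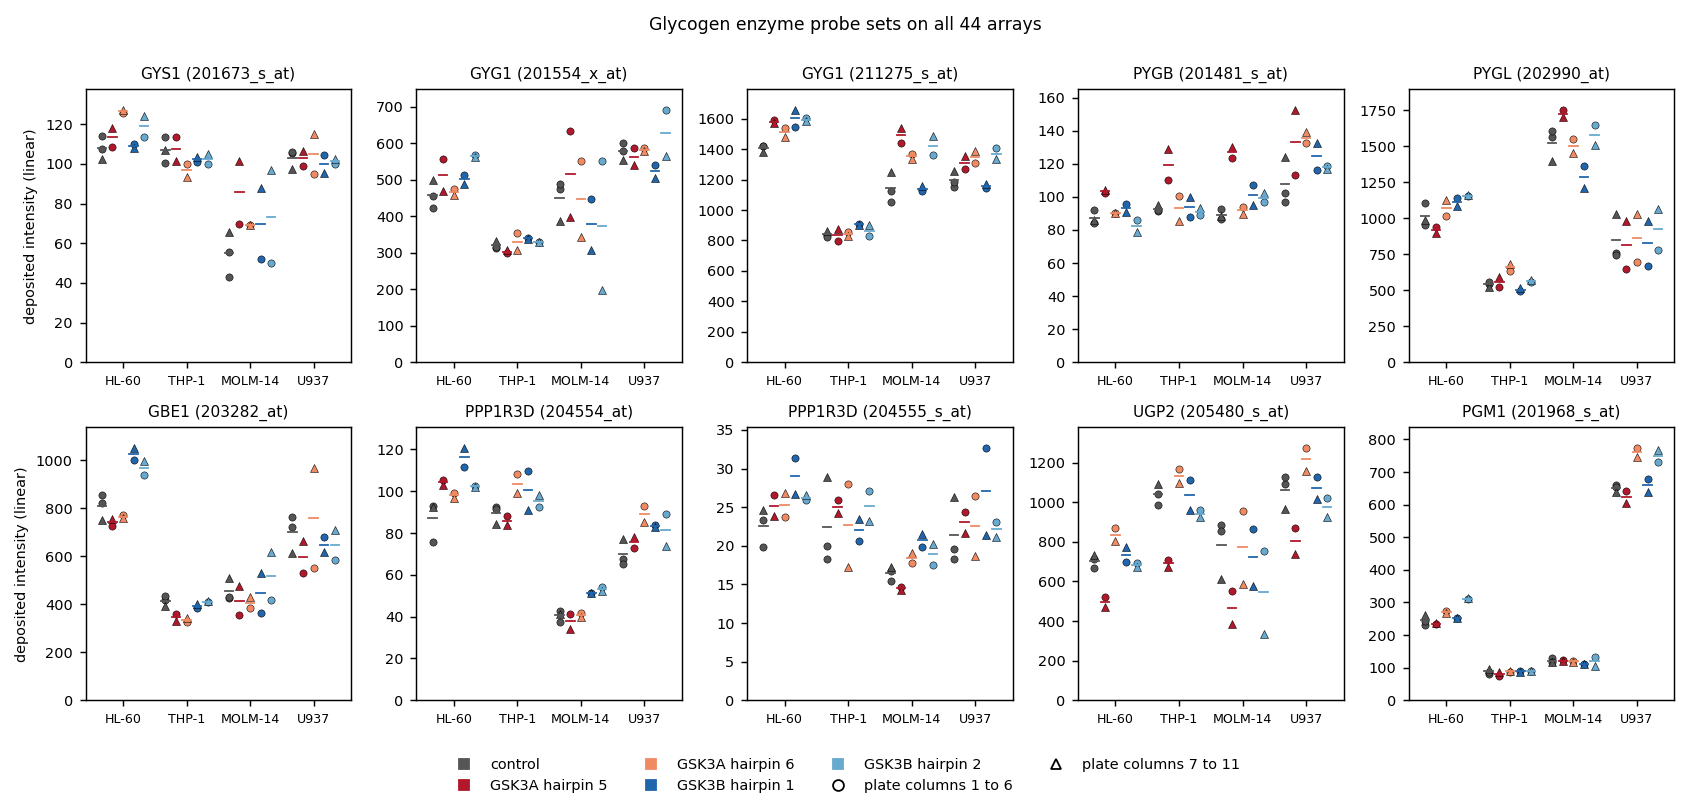
Deposited intensity (linear axis from 0) of the 10 probe sets of the 8 glycogen genes on all 44 arrays, by cell line and hairpin; each point is 1 array, bars are group means, circles are plate columns 1 to 6 and triangles columns 7 to 11. UGP2 with GSK3A hairpin 5 lies below every control array of its line, and PGM1 is highest in U937.

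In control cells the lines differed most in PGM1. Its deposited intensity was 651 ± 10.9 (SD, n = 3) in U937, 246 ± 15.4 in HL-60, 122 ± 6.79 in MOLM-14 and 88.3 ± 7.48 in THP-1. All 6 differences between pairs of lines passed the test, and U937 was 6.51-fold above THP-1 (limma, log2 difference THP-1 minus U937 of −2.70 ± 0.06, adjusted p = 1.22e-23). Control levels differed between lines for 10 of the 10 probe sets (limma F-test), against 61% of all probe sets. Between pairs of lines the share of all probe sets that differed was 44% (HL-60 and THP-1), 35.9% (HL-60 and MOLM-14), 38.6% (HL-60 and U937), 37% (THP-1 and MOLM-14), 41.9% (THP-1 and U937) and 37.7% (MOLM-14 and U937). Levels are compared only within a probe set, since probe sets of different genes differ in brightness. The arrays measure bulk RNA, so fewer cells with a transcript and less transcript per cell cannot be told apart.

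GYS1 had 1 line that stood apart. Its control mean was 54.8 ± 11.2 (SD, n = 3) in MOLM-14, against 108 ± 5.76 in HL-60, 107 ± 6.64 in THP-1 and 103 ± 4.81 in U937. MOLM-14 was lower than each of these (limma, adjusted p = 2.52e-05 against HL-60), by 1.69 to 1.80-fold on the fitted scale, and the other 3 lines did not differ beyond their spread. On the brighter probe set of GYG1, 211275_s_at, the order was HL-60 at 1408 ± 22.5, then U937 at 1197 ± 56.4, MOLM-14 at 1143 ± 99.1 and THP-1 at 839 ± 17.4. Only U937 and MOLM-14 among these did not differ (limma, adjusted p = 0.809). GBE1 split the lines into pairs, with 810.5 ± 52.7 in HL-60 and 701 ± 77.1 in U937 above 454 ± 46.3 in MOLM-14 and 416 ± 21.7 in THP-1. Within each of those pairs the difference missed the test (limma, adjusted p = 0.247 and 0.549). With the columns as a block, HL-60 passed it against U937 (0.0481).

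The phosphorylases had different orders over the lines. PYGL, the liver form that blood cells also use, was highest in MOLM-14 at 1523 ± 109 (SD, n = 3), then 1015 ± 79.8 in HL-60, 845 ± 160 in U937 and 540.002 ± 15.5 in THP-1. MOLM-14 was 2.77-fold above THP-1 (limma, adjusted p = 9.82e-10), and HL-60 and U937 did not pass the test against each other (0.0821) until the columns were a block (1.63e-08). PYGB, the brain form, was highest in U937 at 108 ± 14.4, and in the other lines it lay between 87.5 ± 4.19 and 92.7 ± 2.11. U937 passed the test against each of the 3 (limma, adjusted p = 0.022 to 0.0315). With the columns as a block it passed against THP-1 (0.0303) and no other line.

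UGP2 was higher in U937 at 1060.2 ± 84.3 (SD, n = 3) and THP-1 at 1039 ± 53.1 than in HL-60 at 706 ± 32.6 (limma, adjusted p = 0.0317 and 0.0208). MOLM-14, at 784 ± 149.8, passed the test against no other line, and with the columns as a block it was higher than HL-60 (4.29e-04). PPP1R3D on its brighter probe set, 204554_at, was 89.5 ± 4.30 in THP-1 and 87.1 ± 9.73 in HL-60, which did not differ beyond their spread. It was lower in U937, at 69.9 ± 6.26, and lowest in MOLM-14, at 40.6 ± 2.73, and each of those steps passed the test.

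With the GSK3A hairpins, GYG1 on 211275_s_at and PYGB rose as means over the 4 lines. The other GYG1 probe set missed the test. In THP-1 the mean intensity of 211275_s_at was 839.4 in controls and 839.3 with GSK3A. By hairpin, PYGB passed the test with hairpin 5 and not with hairpin 6. The rise was 0.15 ± 0.03 on the log2 scale for GYG1 (1.11-fold, limma, adjusted p = 1.38e-04) and 0.19 ± 0.04 for PYGB (1.14-fold, 3.0e-04). These were 2 of the 10 probe sets with none lower, against 16.9% of all probe sets that changed (8.56% higher and 8.37% lower), and 4 of the 10 had an unadjusted p under 0.05. The count is thus close to that share. Probe sets at or above the median brightness, fitted alone, gave 3684 calls, against 3762 over all. The share is therefore larger among bright probe sets. Apart from PPP1R3D 204555_s_at, the glycogen probe sets lie above that median, at the 66.1 percentile of brightness or higher. The median change over the 10 probe sets was 0.05, against −0.0008 over all probe sets. GYS1, which glycogen synthase kinase 3 is named for, changed by 0.11 ± 0.07 (limma, adjusted p = 0.312), with a 95% interval from −0.03 to 0.25.

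With plate columns as a block, 5 of the 10 probe sets passed the test for GSK3A, against 27.7% of all. PPP1R3D joined the rises at 0.10 (limma, adjusted p = 0.0264), as it did with cyclic loess (0.0295), on the scale as deposited (0.0275) and with a pseudocount of 64 (0.0419). The means of UGP2 and GBE1 were lower by 0.18 (6.24e-04) and 0.16 (0.0243). For UGP2 that mean joins opposite calls in the same fit, lower with hairpin 5 and higher with hairpin 6 by 0.17 (0.00607). Within columns 1 to 6 alone, GYG1 was at 0.16 (0.0432) and PYGB at 0.18 (0.0364). Within columns 7 to 11 alone they were at 0.12 (0.571) and 0.18 (0.581), with 1 control array a line. GBE1 with GSK3A was at −0.26 (0.00121) in the first set of columns and at 0.0017 (0.997) in the second.

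With the GSK3B hairpins, GYG1 on 211275_s_at and PPP1R3D on 204554_at rose as means over the lines. The other probe set of each gene missed the test. By hairpin, GYG1 passed it with hairpin 2 and not with hairpin 1. GYG1 rose by 0.13 ± 0.03 (1.10-fold, limma, adjusted p = 0.0049) and PPP1R3D by 0.21 ± 0.03 (1.15-fold, 3.41e-04). That is 2 of the 10 probe sets and none lower, against 2.53% of all probe sets that changed (1.22% higher and 1.31% lower), and 4 of the 10 had an unadjusted p under 0.05. Probe sets at or above the median brightness, fitted alone, gave 564 calls, against 562 over all, so the share is again larger among bright ones. GYS1 was at 0.06 ± 0.07 (limma, adjusted p = 0.831), with an interval from −0.08 to 0.20. The GSK3A and GSK3B comparisons share the 12 control arrays, so the GYG1 rise in both is not shown by independent samples. Within columns 1 to 6 alone, GYG1 was at 0.14 (0.378) and PPP1R3D at 0.25 (0.114), and within columns 7 to 11 they were at 0.10 and 0.15 (1 for both). The GYG1 call with GSK3B was lost without HL-60 (0.11, adjusted p = 0.182). It was also lost with line and construct as a random block, whose estimated correlation was 0.0914 (limma, adjusted p = 0.205).

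The direct difference between the targets, which uses no control array, passed the test for 3 of the 10 probe sets, against 17.6% of all. PYGB was higher with GSK3A than with GSK3B hairpins by 0.12 ± 0.03 (limma, adjusted p = 0.00955). PPP1R3D was lower by 0.12 ± 0.03 (0.00743), and GBE1 lower by 0.20 ± 0.07 (0.039). GYG1 did not differ between the targets (0.02, 0.69), with an interval of −0.03 to 0.07. The PPP1R3D difference was lost without MOLM-14 (−0.05, 0.445), the PYGB one without HL-60 (0.13, 0.065) or THP-1 (0.11, 0.0556), and the GBE1 one without HL-60 (−0.14, 0.398) or THP-1 (−0.18, 0.215). The random block also ended the PYGB (adjusted p = 0.0965) and GBE1 (0.0562) calls, and cyclic loess the GBE1 one (−0.19, 0.0592). Within columns 1 to 6 and 7 to 11 the PYGB difference was 0.09 (0.343) and 0.15 (0.439) and that of PPP1R3D −0.11 (0.293) and −0.12 (0.243), while GBE1 missed the test in columns 7 to 11 (−0.19, 0.197). When the columns were a block UGP2 also passed, lower with GSK3A by 0.10 (0.0314), a call that 28.5% of all probe sets then had. The GSK3A mean in that UGP2 difference joins hairpins that moved opposite ways.

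**Figure D2:**
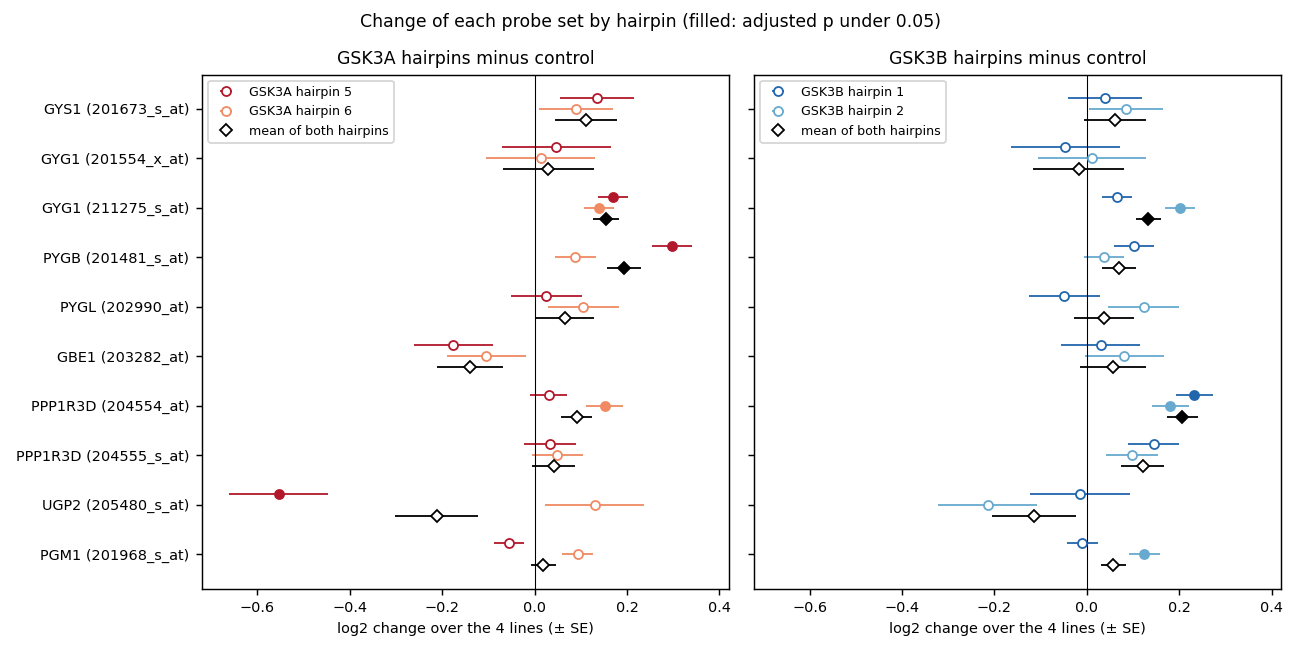
Change of each probe set against control over the 4 lines (log2 axis), by hairpin and as the mean of both hairpins of a target; bars are standard errors of the fit and filled symbols have an adjusted p under 0.05. UGP2 lies at −0.55 with GSK3A hairpin 5 and at 0.13 with hairpin 6, while PPP1R3D 204554_at lies at 0.23 and 0.18 with the GSK3B hairpins.

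UGP2, the enzyme that makes UDP-glucose, separated the GSK3A hairpins. In HL-60 its deposited intensity was 712, 670.4 and 735 in the controls, 520.5 and 471 with hairpin 5, and 869 and 802 with hairpin 6. In THP-1 the controls were at 1041, 986 and 1092, hairpin 5 at 709 and 675, and hairpin 6 at 1170.2 and 1095. Hairpin 5 was lower than every control array in both lines and hairpin 6 higher than every one. In MOLM-14 the controls were at 885, 855 and 612, hairpin 5 at 551 and 383, and hairpin 6 at 957 and 589. In U937 the controls were at 1090.2, 1125 and 965, hairpin 5 at 872 and 739.7, and hairpin 6 at 1276 and 1160.3. The second value of each hairpin and the third control, which share plate columns 7 to 11, were the lower ones in MOLM-14 and U937.

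Over the lines UGP2 fell with hairpin 5 by 0.55 ± 0.11 (1.47-fold lower, limma, adjusted p = 3.96e-04). All 8 of its hairpin 5 arrays lay below every control array of their line, as they did for 1.66% of all probe sets. With hairpin 6 UGP2 was at 0.13 ± 0.11 (limma, adjusted p = 0.548), and 7 of 8 arrays lay above every control array of their line, which at least 7 arrays did for 3.2% of all probe sets. The difference between hairpins 5 and 6 was −0.68 ± 0.12 (limma, adjusted p = 1.23e-04) and kept its call under all 17 alternatives that gave it a value. With the columns as a block UGP2 was at −0.52 with hairpin 5 (1.66e-09) and rose by 0.17 with hairpin 6 (0.00607), calls shared by 28.1% and 24.1% of all probe sets. The mean over both GSK3A hairpins, −0.21 ± 0.09 (0.119), therefore stands for neither hairpin.

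With the GSK3B hairpins UGP2 stayed nearer to control. Hairpin 1 gave −0.01 ± 0.11 (limma, adjusted p = 0.985) and hairpin 2 gave −0.21 ± 0.11 (0.357), or −0.18 (0.00727) with the columns as a block, where 12.5% of all probe sets passed. In that fit hairpin 1 also lay above hairpin 2, by 0.20 (0.00362). In MOLM-14 the hairpin 2 arrays were at 756 and 337, the second being the lowest UGP2 value of all 44 arrays and in columns 7 to 11.

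PYGB rose with hairpin 5 and less with hairpin 6. In HL-60 its deposited intensity was 84.3, 92.2 and 85.9 in controls, 102 and 104 with hairpin 5, and 90.4 and 90.2 with hairpin 6. In THP-1 it was 91.2, 91.8 and 95.1 in controls, 110.01 and 129 with hairpin 5, and 100.6 and 85.5 with hairpin 6. Hairpin 5 lay above the controls in both lines and hairpin 6 overlapped them. In MOLM-14 the controls were at 92.8, 86.4 and 88.4, hairpin 5 at 124 and 129.9, and hairpin 6 at 93.9 and 89.8. In U937 the controls were at 102, 96.9 and 124, hairpin 5 at 113 and 153, and hairpin 6 at 132 and 139. Only in U937 did hairpin 6 lie wholly above the controls, and there the third control was the highest. In all, 7 of 8 hairpin 5 arrays lay above every control array of their line, as at least 7 did for 4.13% of all probe sets.

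The PYGB change was 0.30 ± 0.04 with hairpin 5 (limma, adjusted p = 9.72e-06) and 0.09 ± 0.04 with hairpin 6 (0.223). The difference between them, 0.21 ± 0.05, passed the test (limma, adjusted p = 0.00255) and was lost without MOLM-14 (0.13, 0.183). With GSK3B, PYGB was at 0.10 ± 0.04 with hairpin 1 (limma, adjusted p = 0.293) and 0.04 ± 0.04 with hairpin 2 (0.793). Over the 10 probe sets, 3 passed the test with hairpin 5 (PYGB and GYG1 higher, UGP2 lower) against 17.8% of all, and 2 with hairpin 6 (GYG1 and PPP1R3D, both higher) against 13.1%. With GSK3B hairpin 1 it was PPP1R3D alone, against 3.54% of all, and with hairpin 2 GYG1, PPP1R3D and PGM1, against 4.79%.

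GYG1 on 211275_s_at was higher with both GSK3A hairpins, by 0.17 ± 0.03 with hairpin 5 (limma, adjusted p = 3.4e-04) and 0.14 ± 0.03 with hairpin 6 (0.0038). In MOLM-14 its deposited intensity was 1053, 1127 and 1249 in controls, 1442 and 1538 with hairpin 5, and 1370.2 and 1338 with hairpin 6. In HL-60 it was 1419, 1423 and 1382 in controls, 1591 and 1570.3 with hairpin 5, and 1539.9 and 1482 with hairpin 6. All GSK3A arrays lay above all controls in these 2 lines, and in U937 too, where the lowest GSK3A array was at 1269.9 and the highest control at 1259. The share of all probe sets that separate like this within a line was not counted, here or for other genes. In THP-1 the controls lay between 826 and 859 and the GSK3A arrays between 796 and 876, so the groups overlapped. In HL-60 and THP-1 alone, the lines without a called column difference, the GSK3A change of GYG1 was 0.07 (limma, adjusted p = 0.137).

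The GSK3B hairpins differed from each other in GYG1. Hairpin 2 gave 0.20 ± 0.03 (limma, adjusted p = 1.89e-04) and hairpin 1 gave 0.07 ± 0.03 (0.42), a difference of −0.135 ± 0.04 (0.0147). In MOLM-14 the hairpin 2 arrays were at 1363 and 1484 and the hairpin 1 arrays at 1125 and 1157, inside the range of the controls. The difference was lost without MOLM-14 (−0.07, 0.364) or U937 (−0.10, 0.135), and in HL-60 and THP-1 alone it was 0.0195 (0.854). The second GYG1 probe set, 201554_x_at, whose suffix marks probes that can bind other transcripts, was at 0.03 ± 0.10 with GSK3A (limma, adjusted p = 0.905) and −0.02 ± 0.10 with GSK3B (0.981). The GYG1 probe sets disagree, with a within-line Pearson r of −0.05 over the 44 arrays. On 201554_x_at the spread between replicates was also larger, with a residual SD of 0.258 against 0.0715 on the log2 scale.

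PPP1R3D on 204554_at rose with both GSK3B hairpins, by 0.23 ± 0.04 with hairpin 1 (limma, adjusted p = 6.22e-04) and 0.18 ± 0.04 with hairpin 2 (0.00495). In MOLM-14 its deposited intensity was 37.6, 42.9 and 41.3 in controls, 51.2 and 51.5 with hairpin 1, and 54.1 and 52.1 with hairpin 2. In HL-60 it was 75.9, 93.1 and 92.4 in controls, 112 and 121 with hairpin 1, and 102 and 102 with hairpin 2. The GSK3B arrays lay above all controls in both lines, a separation whose share over all probe sets was not counted. In THP-1 the controls were at 92.4, 91.4 and 84.5 and the GSK3B arrays between 90.9 and 109.8, and in U937 the controls were at 67.7, 65.04 and 76.98 and the GSK3B arrays between 73.6 and 89.05, so those groups overlapped. In all, 7 of 8 hairpin 1 arrays lay above every control array of their line, as at least 7 did for 1.25% of all probe sets. Of hairpin 2, 6 of 8 did, a number for which the share of all probe sets was not counted.

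With GSK3A, PPP1R3D passed the test with hairpin 6 (0.15 ± 0.04, limma, adjusted p = 0.00956) and not with hairpin 5 (0.03 ± 0.04, 0.725). The GSK3A hairpins differed when the columns were a block, hairpin 5 lying below hairpin 6 by 0.12 (0.0342), against 24.6% of all probe sets. The hairpin 6 call was lost without THP-1 (0.14, 0.0591) or U937 (0.11, 0.132). The GSK3B calls by hairpin were lost without HL-60, at 0.19 (0.0616) for hairpin 1 and 0.18 (0.0554) for hairpin 2, and for hairpin 2 also without MOLM-14 (0.15, 0.0835). The second PPP1R3D probe set, 204555_s_at, was dim, between 14.3 and 32.7 on all arrays, and at 0.12 ± 0.05 with GSK3B (limma, adjusted p = 0.231).

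PGM1 was higher with the GSK3B hairpin 2 by 0.12 ± 0.03 (limma, adjusted p = 0.0243) and at −0.01 ± 0.03 with hairpin 1 (0.97), a difference of −0.134 ± 0.04 (0.0166). Its GSK3A hairpins also differed, by −0.15 ± 0.04 (0.00498), with −0.06 ± 0.03 for hairpin 5 and 0.09 ± 0.03 for hairpin 6, and hairpin 6 passed with the columns as a block (0.0206). In U937 its deposited intensity was 661, 653 and 639.8 in controls, 641 and 606 with hairpin 5, 775 and 747 with hairpin 6, 680.3 and 639.95 with hairpin 1, and 732 and 767 with hairpin 2. Hairpins 6 and 2 lay above all controls there, and hairpins 5 and 1 did not. The share of all probe sets with such a separation was not counted. In HL-60 the controls were at 231, 244 and 261, and hairpin 2 at 309.8 and 314. With a pseudocount of 1 the hairpin 2 call (0.0811) and the difference between hairpins 1 and 2 (0.0568) were lost. The hairpin 2 call was lost without HL-60 (0.06, 0.657) or U937 (0.10, 0.174), and the differences between hairpins likewise. Without HL-60 they were −0.13 (0.0914) for GSK3A and −0.08 (0.504) for GSK3B, and without U937 −0.10 (0.146) and −0.13 (0.0865). Between hairpins 5 and 6, 3 of the 10 probe sets differed (UGP2, PYGB and PGM1) against 13.4% of all, and between hairpins 1 and 2 it was 2 (GYG1 and PGM1) against 8.35%.

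By line, the calls for a target came from MOLM-14 and U937. In MOLM-14 with GSK3A 3 of the 10 probe sets rose, against 12.3% of all that changed and 6.23% that rose. GYG1 was at 0.31 ± 0.05 (limma, adjusted p = 2.41e-04), GYS1 at 0.40 ± 0.13 (0.0466) and PYGB at 0.26 ± 0.07 (0.0181). In U937 PYGB rose by 0.26 ± 0.07 (0.0326), 1 of 10 against 4.83% changed and 2.48% higher. With GSK3B, PPP1R3D rose in MOLM-14 by 0.27 ± 0.07 (0.0443), 1 of 10 against 0.977% changed and 0.536% higher. In U937 0 of 10 passed by limma with GSK3B (1 at an unadjusted p under 0.05), against 0.14%. In HL-60 0 of 10 passed with GSK3A (2 unadjusted) and with GSK3B (4 unadjusted), against 6.91% and 0.693%. In THP-1 it was 0 of 10 with GSK3A (1 unadjusted) and GSK3B (0 unadjusted), against 1.36% and 0.0495%.

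Most of these line calls hung on the settings. The PPP1R3D call in MOLM-14 was lost in 11 of 18 alternatives, among them cyclic loess (limma, adjusted p = 0.0567), a pseudocount of 64 (0.0975), columns 1 to 6 (0.562) or 7 to 11 (1) alone, without HL-60 (0.0893) or THP-1 (0.075), and the random block (0.514). The PYGB call in U937 was lost in 8 of 18, among them a pseudocount of 1 (0.0503), columns 1 to 6 (0.353) or 7 to 11 (1) alone, without HL-60 (0.0905) or THP-1 (0.0522), and the random block (0.343). In MOLM-14 the PYGB call was lost in 7 of 18, among them cyclic loess (0.0579), without HL-60 (0.0517) and the random block (0.175). Within single sets of columns it was at 0.25 (0.173) and 0.26 (0.827). GYG1 in MOLM-14 kept its call in 15 of 18, with 0.33 (0.0439) in columns 1 to 6 and 0.23 (0.695) in columns 7 to 11.

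Blocking on the columns gave calls in HL-60 as well. For GSK3B 3 of 10 rose there, against 2.94% of all probe sets: GYG1 at 0.19 (limma, adjusted p = 0.0109), PPP1R3D at 0.26 (0.0268) and PYGL at 0.16 (0.0497). PPP1R3D with GSK3B in HL-60 also passed with median scaling (0.034), as deposited (0.0339), with cyclic loess (0.049) and with a pseudocount of 64 (0.0311). For GSK3A in HL-60 GYG1 rose by 0.165 (0.00819), 1 of 10 against 15.8%. In MOLM-14 with GSK3A the block added PYGL at 0.13 (0.0292) and UGP2, lower by 0.26 (0.0101), to make 5 of 10 against 23.1%. For UGP2 there, hairpin 5 lay below all controls, and hairpin 6 had 1 array above and 1 below them all. With GSK3B it added GYG1 at 0.15 (0.0446), 2 of 10 against 5.1%. In U937 it added GYG1 with GSK3A at 0.15 (0.0198), 2 of 10 against 12.4%. By limma 0 of 10 passed in U937 with GSK3B (2 unadjusted) against 1.12%, and in THP-1 with GSK3A (4 unadjusted) and GSK3B (0 unadjusted) against 5.18% and 0.189%.

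Single hairpins also gave calls within lines. In MOLM-14 hairpin 5 changed 4 of 10 against 13.5% of all, with GYG1, GYS1 and PYGB higher and UGP2 lower, while hairpin 6 (against 7.46%) and hairpin 2 (against 2.25%) each raised GYG1 alone. In U937 hairpin 6 raised PPP1R3D and PGM1, against 3.81%. In HL-60 hairpin 1 raised PPP1R3D by 0.34 ± 0.08 (limma, adjusted p = 0.0192), against 1.73%, and hairpin 2 raised PGM1 by 0.31 ± 0.07 (0.00811), against 2.03%.

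These line calls do not show that the lines differ. Of the 10 probe sets, 0 passed the limma F-test between lines for either target, against 5.56% of all for GSK3A and 0.176% for GSK3B, and the lowest adjusted p was 0.0527, for GYG1 with GSK3A. With the columns as a block, GYG1 (0.00374) and PYGL (0.0174) passed it for GSK3A, 2 of 10 against 19.2% of all.

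GYS1 in MOLM-14 moved with the plate columns as well. In columns 1 to 6 its deposited intensity was 55.8 and 43.2 in controls, 69.9 with hairpin 5, 69.4 with hairpin 6, 52.3 with hairpin 1 and 50.1 with hairpin 2. In columns 7 to 11 it was 65.5 in the control, 101.7 with hairpin 5, 69.35 with hairpin 6, 87.6 with hairpin 1 and 96.7 with hairpin 2. The GSK3A arrays were above the controls in both sets, and the GSK3B arrays only in the second. The GSK3A change of GYS1 in MOLM-14 was 0.40 (limma, adjusted p = 0.00783) in the first set and 0.30 (0.609) in the second. It was lost in fits without HL-60 (0.40, 0.107), THP-1 (0.41, 0.107) or U937 (0.41, 0.069). It was also lost with median scaling (0.38, 0.0585), a pseudocount of 64 (0.25, 0.0606) and the random block (0.0816).

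**Figure D3:**
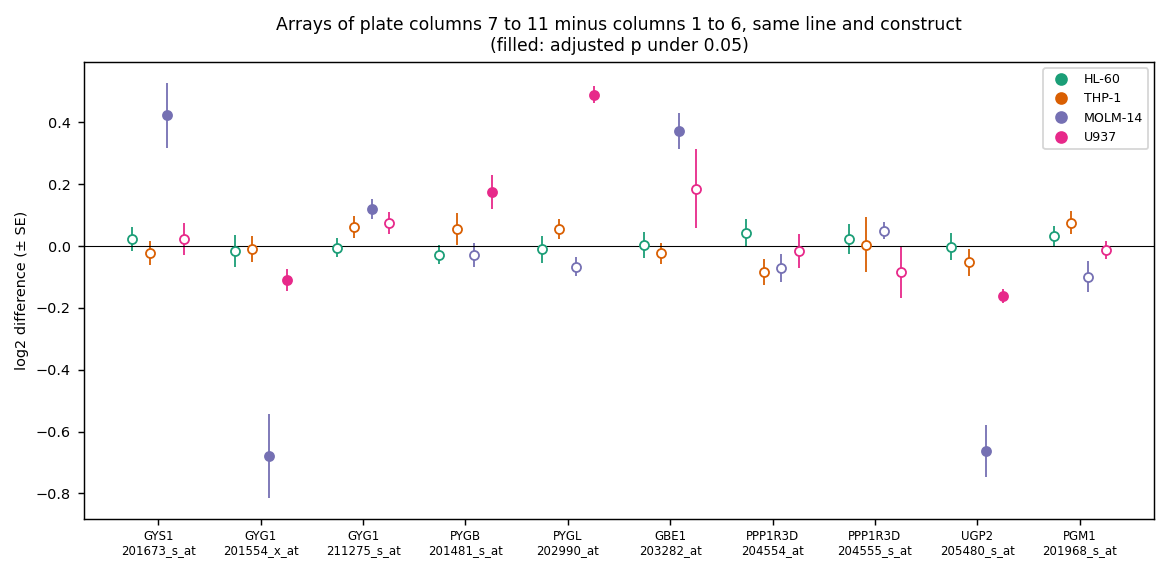
Log2 difference of plate columns 7 to 11 minus columns 1 to 6 within the same construct, for each probe set and line; bars are standard errors and filled symbols have an adjusted p under 0.05. The largest differences are in MOLM-14, for GYG1 201554_x_at at −0.68 and UGP2 at −0.66, and no symbol is filled in HL-60 or THP-1.

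Between plate columns, arrays of the same MOLM-14 construct differed in 5 of the 10 probe sets against 24% of all. UGP2 was lower in columns 7 to 11 by 0.66 ± 0.08 (limma, adjusted p = 0.00155) and GYG1 201554_x_at by 0.68 ± 0.14 (0.00968). GYS1 was higher there by 0.42 ± 0.11 (0.0245), GBE1 by 0.37 ± 0.06 (0.00379) and GYG1 211275_s_at by 0.12 ± 0.03 (0.0336). In U937 it was 4 of 10 against 31.9%, and PYGL had the largest difference, higher in columns 7 to 11 by 0.49 ± 0.03 (1.61e-05). The U937 controls of PYGL were at 760.3 and 746 in the first set and 1029 in the second. PYGB was higher by 0.17 ± 0.06 (0.0433), UGP2 lower by 0.16 ± 0.02 (0.00126) and GYG1 201554_x_at lower by 0.11 ± 0.04 (0.046). These differences for UGP2, GYS1 and GBE1 in MOLM-14 are as large as or larger than most hairpin changes of the same genes.

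GBE1 and PYGL gave few calls of their own. GBE1 was at −0.14 ± 0.07 with GSK3A (limma, adjusted p = 0.212) and 0.06 ± 0.07 with GSK3B (0.868). It fell with hairpin 5 by 0.20 (0.0208) when the columns were a block. In HL-60 its controls were at 856, 823 and 753, the GSK3A arrays between 728 and 773.5, and the GSK3B arrays between 937.05 and 1053, above all controls. In THP-1 the controls were at 419.7, 435 and 392 and the GSK3A arrays between 328 and 358, below all controls. How many of all probe sets separate like this within a line was not counted. In U937 the GSK3A arrays ran from 532 to 968, which covers the controls at 723, 764 and 615. In HL-60 and THP-1 alone GBE1 fell with GSK3A by 0.19 (limma, adjusted p = 5.22e-04).

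PYGL was at 0.07 ± 0.06 with GSK3A (limma, adjusted p = 0.605) and 0.04 ± 0.06 with GSK3B (0.913). With the columns as a block it was higher with hairpin 6 by 0.09 (0.0176) and with hairpin 2 by 0.10 (0.00892). In that fit hairpin 5 lay below hairpin 6 by 0.08 (0.0424), and hairpin 1 lay below hairpin 2 by 0.17 (8.94e-05), a difference that 18.2% of all probe sets then had. In MOLM-14 its controls were at 1564, 1605 and 1399.7, hairpin 1 at 1361 and 1213, and hairpin 2 at 1648 and 1509. Hairpin 1 lay below all controls there and hairpin 2 overlapped them.

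Other genes of the pathway gave few calls. Of 24 further glycogen genes, among them the debranching enzyme, phosphorylase kinase subunits and catalytic subunits of protein phosphatase 1, 16 were measured. They were not filtered by brightness, so a gene without expression in these lines would count as not called. With GSK3A 0 of 16 passed the test by limma (2 at an unadjusted p under 0.05) and with GSK3B 0 of 16 (0 unadjusted), against 16.9% and 2.53% of all probe sets, with a median change of −0.01 for both. The shares here and below are over probe sets. In a fit with 1 probe set per gene, 2560 of 12165 genes passed for GSK3A and 404 for GSK3B. Hairpin 6 gave 2 higher and 1 lower of the 16, against 13.1% of all: the phosphorylase kinase subunit PHKA2 at 0.18 (limma, adjusted p = 0.00435), the phosphatase PPP1CB at 0.14 (0.0156) and the phosphorylase kinase subunit PHKB at −0.28 (0.00637), named after their values were seen. Of the same 16, by limma hairpin 5 gave 0 (2 unadjusted) against 17.8%, hairpin 1 gave 0 (1 unadjusted) against 3.54% and hairpin 2 gave 0 (0 unadjusted) against 4.79%.

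Genes that supply or consume glucose 6-phosphate moved with GSK3A: 3 of 6 rose and 1 fell on the brighter probe set of each gene, against 16.9% of all probe sets. HK1, a hexokinase that phosphorylates glucose, rose by 0.41 ± 0.09 (limma, adjusted p = 0.0025) and HK3, the hexokinase of myeloid cells, by 0.25 ± 0.07 (0.0116). G6PC3, the widely expressed glucose 6-phosphatase, rose by 0.14 ± 0.03 (0.00253) on its brighter probe set and was at 0.07 (0.204) on the other. HK2, another hexokinase, was at 0.09 (0.476) on its brighter probe set and fell by 0.28 ± 0.04 (2.9e-06) on the other, so its probe sets disagree. GPI, which turns glucose 6-phosphate into fructose 6-phosphate, fell by 0.17 ± 0.04 (0.00182). With GSK3B 0 of 6 passed by limma (0 unadjusted), against 2.53%. The hairpins were not alike here. HK1 was at 0.72 ± 0.11 with hairpin 5 (2.37e-05) and 0.09 ± 0.11 with hairpin 6 (0.714), HK3 at 0.51 ± 0.08 (5.91e-05) and 0.0018 (0.996), and GPI at 0.08 ± 0.04 (0.243) and −0.42 ± 0.04 (1.4e-07). Each differed between hairpins 5 and 6, by 0.63 ± 0.12 for HK1 (limma, adjusted p = 5.45e-04), 0.51 ± 0.09 for HK3 (2.48e-04) and 0.50 ± 0.05 for GPI (1.56e-08). 

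Myeloid markers moved with GSK3A too, with 4 of 8 measured markers higher (PTPRC, ITGAM, CSF3R and CD14) and 1 lower (MPO), where 16.9% of all probe sets changed. With GSK3B 0 were higher and 1 lower (MPO), where 2.53% changed. Hairpin 5 gave the same 5 calls as the GSK3A mean (17.8% of all), while hairpin 6 gave PTPRC and CSF3R higher and MPO lower (13.1%), with ITGAM (0.393) and CD14 (0.0529) not called. Hairpin 1 gave MPO lower alone (3.54%), and hairpin 2 gave MPO, CEBPA and CD14 lower (4.79%), CD14 by 0.25 (limma, adjusted p = 7.76e-05). CD14, the monocyte co-receptor for lipopolysaccharide, rose with GSK3A by 0.33 ± 0.03 (limma, adjusted p = 1.37e-08), and MPO, the peroxidase of neutrophil granules, fell by 0.39 ± 0.05 (5.86e-06). Both changes are means over the 4 lines, and marker changes by line were not examined. Over all arrays of a line CD14 averaged 427 in HL-60 and 8.16 to 13.7 in the others. MPO averaged 5040 in HL-60 and 12.9 to 53.1 in the others. The summed deposited intensity of the 8 markers ran in HL-60 from 8139 to 8683 in controls, 7603 to 8097 with GSK3A and 7219 to 8569 with GSK3B. In MOLM-14 these ranges were 2969 to 3192, 3032 to 3952 and 2656 to 3354. In THP-1 they were 3069 to 3441, 3081 to 3257 and 2976 to 3199, and in U937 1914 to 2202, 1941 to 2274 and 1802 to 2137. The sum was below the controls with GSK3A in HL-60 and overlapped them in the other lines. The part of these markers in the changes of the glycogen genes was not tested.

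After the mean of each line was subtracted, every glycogen gene was set against the 6903 genes at or above the median brightness, over the 44 arrays. UGP2 was most like SELENOT (Pearson r = 0.958) and ZFYVE21 (0.85), and PYGL most like RNASET2 (0.866) and APBA2 (0.846). GYS1 was most like CDC34 (0.793) and RRBP1 (0.792), PYGB like PPARD (0.756) and FIBP (0.737), and GYG1 like PNPLA6 (0.727) and FAM50A (0.718). GBE1 was most like ZNF148 (0.698) and RNF6 (0.696), PGM1 like CCNG1 (0.677) and ANKMY2 (0.651), and PPP1R3D like KAT2B (0.646) and TMX4 (0.61). Among the glycogen probe sets themselves r ran from −0.577, between GYS1 and UGP2, to 0.499, between GYG1 201554_x_at and UGP2. These values describe arrays that share hairpins and plate columns, and no p is given for them.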

How the data were processed

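The authors deposited 1 table of intensity values on a linear scale for 22277 probe sets and 44 arrays. Per the submitters' processing notes RMA and MAS5 were used; the one behind this table, its version and its settings: not given in the sources used here. The deposited values were turned into log2(intensity + 16) and quantile-normalized, because array medians spanned 0.154 on the log2 scale. Fold changes are understated on this scale, most of all for dim probe sets. Probe sets were named through the platform annotation, updated by Entrez identifier. Of the 22215 that are not controls, 19724 had 1 gene symbol, 568 had several and 1923 had none.

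The means of 20 groups (each construct in each line) were fitted by limma 3.58.1 (R 4.3.3), leaving 24 residual degrees of freedom. Adjusted p-values are two-sided, Benjamini-Hochberg adjusted over all 22215 probe sets, with a threshold of 0.05; errors after ± are standard errors unless named SD. The spread is that between replicate arrays, which leaves out any spread between hairpins of 1 target. Fits within plate columns pooled the hairpins of a target. On simulated data the fit recovered 65 of 100 changes of 0.2 and 99 of 100 changes of 0.5 (log2) for the GSK3A comparison. Those data had the same change with both hairpins in every line, independent noise and no shift between plate columns. The recovery in the real data, which have such shifts and hairpin differences, was therefore not measured.

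Replicate numbers did not pair the samples in every line: deviations of the same-numbered hairpin arrays correlated at 0.599 or more in MOLM-14 and 0.749 or more in U937, and at 0.041 and 0.001 at the lowest in HL-60 and THP-1. Replicate arrays correlated at 0.987 to 0.9988, and 0 arrays were identical. Alternatives were other scalings (median, cyclic loess, as deposited), pseudocounts of 1 and 64, the brighter probe sets, 1 probe set per gene, blocks, and leaving out each replicate or line; HL-60 and THP-1 alone was added after seeing the data. The named genes are the 8 glycogen genes, the targets, members of the 2 further pathway lists that passed the test for a target over the lines, cell type markers, and the 2 genes most like each glycogen gene; HK2, PHKA2, PPP1CB and PHKB were added after their values were seen. The genes and lists were chosen with earlier results of these data known.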

Additional observations from a re-analysis of the deposited data

Results flagged for a closer look

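There were 5 differences between 2 hairpins against the same target that passed the test of the difference itself (limma, Benjamini-Hochberg adjusted over all probe sets). UGP2 was lower with GSK3A hairpin 5 than with hairpin 6 by a log2 difference of −0.68 (adjusted p = 1.23e-04), PYGB was higher with hairpin 5, at 0.21 (0.00255), and PGM1 was lower, at −0.15 (0.00498). Between GSK3B hairpins 1 and 2, GYG1 on 211275_s_at differed by −0.135 (0.0147) and PGM1 by −0.134 (0.0166), both higher with hairpin 2. What sets the hairpins of a target apart was not tested.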

How the results depend on the processing

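The counts of glycogen probe sets past the test were 2 for GSK3A, 2 for GSK3B and 3 for the difference between the targets, and those of all probe sets were 3762, 562 and 3902. Scaling, pseudocount and brightness settings kept each of the 3 counts over all probe sets within 1.5 times. With the plate columns as a block they became 5 of 10 and 6151 for GSK3A, 1777 for GSK3B and 6327 for the difference, and the calls by hairpin and line went from 14 to 28. The replicate block, although the numbers pair only in MOLM-14 and U937, gave 4 of 10 for GSK3A, 1581 probe sets for GSK3B and 26 calls by hairpin and line. In columns 1 to 6 alone the counts were 2017 for GSK3A, 26 with 0 of 10 for GSK3B, and 1304 with 1 of 10 for the difference; in columns 7 to 11 alone they were 60, 4 and 530, each with 0 of 10, and 5 of 10 control levels differed between lines. With line and construct as a random block they were 2110, 45 with 1 of 10, and 2463 with 1 of 10. Without HL-60 they were 2250, 173 with 1 of 10, and 2388 with 1 of 10; without THP-1 the difference had 1 of 10 and GSK3B 341; without MOLM-14 GSK3A had 4 of 10. Leaving out 1 replicate number at a time gave 0 to 2 of 10 and 1131 to 3691 for GSK3A, 0 to 3 and 1 to 596 for GSK3B, 0 to 3 and 1065 to 4018 for the difference, 0 to 17 calls by hairpin and line, and 6 to 7 control levels between lines. Without number 1 or 2 each hairpin has 1 array a line, assumed to vary like the controls. The GYG1 211275_s_at difference between GSK3B hairpins 1 and 2 changed sign in HL-60 and THP-1 alone, at 0.0195 (limma, adjusted p = 0.854); the cause was not tested. The UGP2 difference between GSK3A hairpins kept its call throughout, from −0.74 to −0.64, with a highest adjusted p of 0.0444. Sign changes of values past the test in neither setting were not counted. Dim probe sets such as PPP1R3D 204555_s_at lie near the array medians, which limits how low they can read.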
